A study of Homo sapiens with 8 samples.

Results

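The 43 genes described here are targets of the hypoxia-inducible factors (HIFs) and genes of glycolysis, taken as a fixed list of symbols and matched to the gene numbers of the count tables, where they are 43 of 25702 listed genes. They were measured by RNA-seq in SUIT2, an established human pancreatic ductal adenocarcinoma (PDA) line of epithelial cells, grown in RPMI with 10% FBS and carrying a lentiviral short hairpin RNA (shRNA). Of the 8 libraries, 4 are labelled shScr (scramble shRNA, the control), 2 are labelled shEn1_1 and 2 shEn1_2, for a pair of shRNA constructs against *EN1*, a homeobox transcription factor. All groups are the same line with the same kind of vector, nothing in the labels says that the replicates were separate cultures, and the p-values below therefore measure the spread between these libraries, which may be technical.

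When oxygen is plentiful, prolyl hydroxylases of the EGLN family mark the HIF alpha subunits for destruction. When oxygen is scarce, the subunits persist, pair with ARNT and bind short DNA elements with the core ACGTG or GCGTG near their target genes, among which are most enzymes that turn glucose into lactate. PDA is known as a poorly perfused tumour whose cells take up much glucose, while oncogenic RAS and MYC also act on many of the same glycolytic genes, so transcripts of these genes are no direct reading of oxygen.

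The core sequence was looked for in the 300 bases around each start site (250 before it and 50 after it), in the RefSeq promoter table of build GRCh38.p14, using the first start listed per gene. A sequence was there for 39 of the 43 genes, and not for *VEGFA*, *BNIP3L*, *NDRG1* and *SLC2A3*. ACGTG, read on either strand (on the other strand it appears as CACGT), was in 18 of the 39 (46.2%), against 21.6% of all 27305 promoters and 26.6% of the 10915 promoters of genes that passed the count filter. GCGTG was in 48.7%, against 36.3% and 50.9%, and the palindrome CACGTG, which holds ACGTG on both strands and is counted on each, in 15.4%, against 7.43% and 10.1%. The median GC content was 69.7%, against 58.3% and 65.3%. The 6 promoters below show the range of matches among genes that follow different patterns over the libraries, and were picked after their values were seen. *BNIP3*, *ALDOC* and *ENO2* were highest, and *LDHA* and *GAPDH* lowest, in the same pair of libraries, while *CA9* had next to no reads. For *GAPDH* the gap was only 1.02-fold and was not kept under every scaling of the libraries. Capitals mark each ACGTG or CACGT, and each sequence is written 5′ to 3′ on the strand of its gene.
BNIP3 promoter (chr10:131981874-131982173, - strand, GRCh38.p14): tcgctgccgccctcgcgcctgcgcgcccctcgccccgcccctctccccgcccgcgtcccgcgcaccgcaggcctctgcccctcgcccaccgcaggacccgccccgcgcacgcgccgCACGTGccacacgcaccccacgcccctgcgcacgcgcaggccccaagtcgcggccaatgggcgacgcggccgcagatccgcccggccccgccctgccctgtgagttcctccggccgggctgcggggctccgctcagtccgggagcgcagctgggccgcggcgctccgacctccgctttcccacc
ALDOC promoter (chr17:28576846-28577145, - strand, GRCh38.p14): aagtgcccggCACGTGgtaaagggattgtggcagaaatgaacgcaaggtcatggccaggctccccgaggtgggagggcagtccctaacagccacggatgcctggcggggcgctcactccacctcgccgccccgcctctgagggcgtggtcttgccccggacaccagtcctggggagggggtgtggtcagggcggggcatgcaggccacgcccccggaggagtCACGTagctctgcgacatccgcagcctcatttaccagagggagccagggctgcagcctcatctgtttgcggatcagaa
ENO2 promoter (chr12:6914330-6914629, + strand, GRCh38.p14): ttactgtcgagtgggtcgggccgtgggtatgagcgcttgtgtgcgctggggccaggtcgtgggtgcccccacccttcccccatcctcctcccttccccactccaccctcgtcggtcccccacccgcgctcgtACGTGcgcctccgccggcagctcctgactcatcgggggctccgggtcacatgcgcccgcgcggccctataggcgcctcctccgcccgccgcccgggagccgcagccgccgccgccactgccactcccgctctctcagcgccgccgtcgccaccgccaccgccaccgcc
LDHA promoter (chr11:18394313-18394612, + strand, GRCh38.p14): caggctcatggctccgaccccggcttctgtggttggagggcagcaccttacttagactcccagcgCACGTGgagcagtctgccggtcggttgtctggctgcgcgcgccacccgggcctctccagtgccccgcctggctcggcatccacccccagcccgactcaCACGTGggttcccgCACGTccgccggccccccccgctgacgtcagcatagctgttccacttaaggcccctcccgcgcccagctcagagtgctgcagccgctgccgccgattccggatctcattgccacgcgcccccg
GAPDH promoter (chr12:6535014-6535313, + strand, GRCh38.p14): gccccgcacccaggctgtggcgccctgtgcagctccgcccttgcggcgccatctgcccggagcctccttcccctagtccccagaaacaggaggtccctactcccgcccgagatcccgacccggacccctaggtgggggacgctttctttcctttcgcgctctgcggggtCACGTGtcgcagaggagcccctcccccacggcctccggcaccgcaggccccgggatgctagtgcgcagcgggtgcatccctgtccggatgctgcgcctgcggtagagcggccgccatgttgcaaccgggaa
CA9 promoter (chr9:35673678-35673977, + strand, GRCh38.p14): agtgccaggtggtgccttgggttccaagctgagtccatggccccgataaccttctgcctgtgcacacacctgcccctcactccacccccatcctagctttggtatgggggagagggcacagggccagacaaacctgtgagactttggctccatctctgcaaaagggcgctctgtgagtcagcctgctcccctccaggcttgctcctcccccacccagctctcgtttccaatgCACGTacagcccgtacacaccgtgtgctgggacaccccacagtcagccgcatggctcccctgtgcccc

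*LDHA* had the most matches, 5, of which the first 4 were a pair of palindromes, and the ACGTG of *CA9* began 18 bases before its start site. *ENO2* had 1 match, 118 bases before the start. *ADM* and *EPAS1*, both of which varied widely between libraries, had no ACGTG and 1 GCGTG each. A match describes these letters only and is not a measured binding site.

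Before the members, the state of the libraries has to be given. Library totals ran from 33423590 to 37810604 counts (1.13-fold), and all values below are CPM, read counts rescaled to a common library size with TMM composition factors of 0.962 to 1.07. Values are listed in replicate order throughout, first shScr replicates 1 to 4, then shEn1_1 replicates 1 and 2, then shEn1_2 replicates 1 and 2. *EN1* itself had 4.10, 4.50, 4.94 and 2.51 CPM in shScr, 5.77 and 5.41 CPM in shEn1_1 and 1.35 and 6.70 CPM in shEn1_2. It was lowest in the library labelled shEn1_2 replicate 1 and next lowest in the library labelled shScr replicate 4, and 3 of the 4 libraries labelled shEn1 were above every shScr library (log2 fold change 0.26, SE 0.43, edgeR adjusted p = 1.00). A lower level of the targeted gene in the libraries labelled shEn1 was thus not detected, at 53 to 218 counts per library. The group names below are used as labels only. The libraries labelled shScr replicate 4 and shEn1_2 replicate 1 lay together on the first principal component (50.4% of the variance), at 48.6 and 49.9, with the other 6 between -21.5 and -9.47, and are called the pair below where no other is named. By the root mean square difference of log2 CPM, each library's nearest neighbour carried a label of the other arm: shScr replicate 1 with shEn1_1 replicate 2, shScr replicate 2 with shEn1_2 replicate 2, shScr replicate 3 with shEn1_1 replicate 1, and shScr replicate 4 with shEn1_2 replicate 1. By the chi-square of the counts, the first and the last of these pairs were again each other's nearest (20.8 and 10.2 per gene), but shScr replicate 2 was nearer to shScr replicate 1 (28.9) than to shEn1_2 replicate 2 (31.04), and shScr replicate 3 nearer to shEn1_2 replicate 2 (39.3) than to shEn1_1 replicate 1 (48.6), so the other pairs depend on the measure. No libraries shared their counts, as sampling noise alone gives a chi-square of about 1 per gene. These pairs were seen in the data and are not groups of the study, so they are only described and nothing is tested between them.

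Of the markers of an epithelial ductal line, 8 of 9 had a mean of at least 1 CPM, with *KRT17* at or near 0, and their summed level was 11728 to 15963 CPM in shScr and 11465 to 18609 CPM in shEn1 libraries. Of 8 fibroblast markers 4 were at 0 in every library (*COL1A2*, *COL3A1*, *DCN* and *LUM*), and the sum was 1.33 to 4.28 CPM in shScr and 1.17 to 2.86 CPM in shEn1 libraries. The 4 endothelial markers summed to at most 0.676 CPM, and of 5 immune markers *PTPRC* and *CD3E* were at 0, the sum of 8.08 to 34.9 CPM being mostly *CD68*. The 3 acinar markers summed to at most 1.41 CPM and the 3 endocrine markers to at most 0.216 CPM. The epithelial markers *KRT7*, *KRT19*, *EPCAM*, *CDH1* and *CLDN4* had their lowest values in the libraries labelled shScr replicate 4 and shEn1_2 replicate 1, for example *KRT7*, a ductal keratin, at 198 and 192 CPM against 533 to 1080 CPM in the other 6. The most abundant ones did not share this: *KRT8* had 6486 and 6367 CPM there and its lowest value, 6094 CPM, in shEn1_1 replicate 1, and *KRT18* had 4254 and 4219 CPM there and its lowest value, 3586 CPM, in shScr replicate 3. *MUC1*, at 0.756 to 3.38 CPM, was lowest in shEn1_1 replicate 1. In bulk RNA, fewer cells of a type and less RNA per cell cannot be told apart. The 5 lower markers moved with every member described below as high or low in that pair, and their part in those values was not tested.

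The first question of the design was whether the members differed between libraries labelled shEn1 and shScr. They did not pass the test in either direction. Of 14333 genes tested, 41 members among them, edgeR's quasi-likelihood test called 0 at a Benjamini-Hochberg adjusted p below 0.05 (0.0% of all tested genes), and 44 genes (0.307%) but 0 members had an unadjusted p below 0.05. Another tool, DESeq2, called 2 genes, neither of them a member, and had 39 genes at an unadjusted p below 0.05. Among the 41 members, 20 had a higher and 21 a lower fitted level in shEn1, with log2 fold changes from -0.32 (*CA12*) to 0.40 (*LOX*). Their median was -0.0063, beside -0.0028 over all tested genes. Standard errors had a median of 0.15. The smallest unadjusted p of a member was 0.19, for *PFKFB4*, and the adjusted p of every member was 1.00. For no member did all 4 shEn1 libraries lie on one side of all 4 shScr libraries, as did 60 genes (0.419%) of those tested. Without the libraries labelled shScr replicate 4 and shEn1_2 replicate 1, in a fit of 3 against 3, 63 of 14263 genes (0.442%) and 0 members had an unadjusted p below 0.05, and 21 members were higher and 20 lower. Without also shScr replicate 3 and shEn1_1 replicate 1, in a fit of 2 against 2, 4 of the 40 members tested had an unadjusted p below 0.05, as had 1512 of 14273 genes (10.6%). They were *BNIP3L* (log2 fold change -0.41, SE 0.13), *PLOD2* (-0.43, SE 0.15), *LDHA* (-0.25, SE 0.093) and *SLC16A3* (0.39, SE 0.12), with edgeR adjusted p of 0.401 to 0.413.

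**Figure D1:**
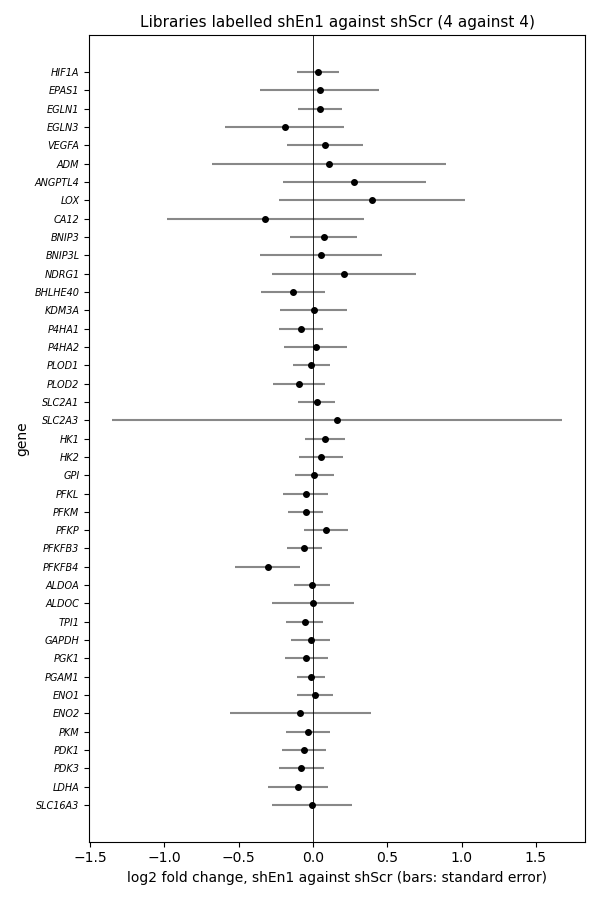
Log2 fold change of the 41 tested members between the 4 libraries labelled shEn1 and the 4 labelled shScr (points, with the standard error as bars), in order of role. Every point lies between -0.32 and 0.40, and the longest bar is that of *SLC2A3*, at 1.52.

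Compared construct by construct in a fit with 3 groups, the members again gave no call. For shEn1_1 against shScr, 0 of 14333 genes were called (0.0%) and 94 (0.656%) had an unadjusted p below 0.05, none of them a member, with 23 members higher and 18 lower (median log2 fold change 0.026, beside -0.0074 over all tested genes). For shEn1_2 against shScr the calls were 0 (0.0%), with 43 genes (0.3%) and 0 members at an unadjusted p below 0.05, and 15 members were higher and 26 lower (median -0.066, beside -0.0087). Between the constructs, shEn1_2 against shEn1_1, 0 genes were called (0.0%), 153 (1.07%) had an unadjusted p below 0.05, 0 members did, and 16 members were higher and 25 lower (median -0.088, beside 0.0016). DESeq2 in the same 3 groups called 3, 0 and 0 genes, with 116, 56 and 241 at an unadjusted p below 0.05. The 241, between the constructs, held 1 member, *NDRG1* (log2 fold change -1.13). In edgeR's fit the smallest unadjusted p of a member was also that of *NDRG1* between the constructs (edgeR's unadjusted p = 0.107, log2 fold change -1.13). With shEn1_2 replicate 2 left out, that construct held 1 library and its spread was taken from the other groups, so only effect sizes are given. Log2 fold changes against shScr were then 0.57 for *BNIP3*, -1.40 for *EGLN3* and -1.48 for *NDRG1*. Against shEn1_1 they were -1.49 for *EPAS1*, -1.39 for *EGLN3*, 1.31 for *BNIP3L* and -2.15 for *NDRG1*. These members were picked by their p in that fit. Both comparisons with shScr share its 4 libraries.

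As the labelled groups overlapped for every tested member, the spread was taken over all 8 libraries, whatever their label. In 13 of the 41 tested members (31.7%) the highest library was at least 2 times the lowest, against 35.8% of all tested genes, and the median ratio of highest to lowest was 1.5002, against 1.68. By neither measure was the spread wider among the members than over all tested genes. Without the libraries labelled shScr replicate 4 and shEn1_2 replicate 1 the count was 6 members (14.6%, against 24.9%), *VEGFA*, *ANGPTL4*, *LOX*, *CA12*, *SLC2A3* and *SLC16A3*. In the libraries labelled shScr replicate 4 and shEn1_2 replicate 1, 9 members (21.95%) were both above the other 6 libraries, against 18.9% of all tested genes. Both were below the other 6 in 13 members (31.7%), against 19.2%. Scaling moved the second count: with library size alone 11 members were above (26.8% against 27.4%) and 7 below (17.1% against 12.9%). All 9 above and 7 of the 13 below, namely *EPAS1*, *EGLN3*, *CA12*, *NDRG1*, *P4HA2*, *PKM* and *LDHA*, kept their place under TMM, library size and median-of-ratios scaling. Within the 4 nearest pairs the median member differed 1.103-fold, against 1.15-fold over all tested genes.

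**Figure D2:**
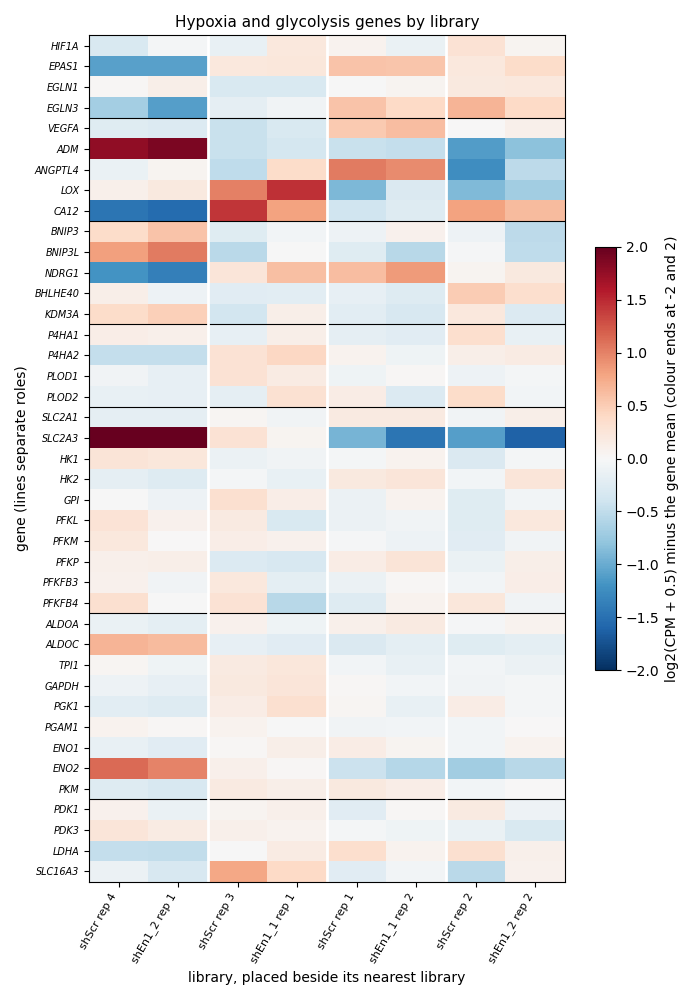
Colour gives log2(CPM + 0.5) minus the gene's mean over the 8 libraries, for the 41 tested members (rows, grouped by role) and the libraries (columns, each beside its nearest neighbour). Red *ADM*, *SLC2A3*, *BNIP3L*, *ENO2* and *ALDOC* and blue *EPAS1*, *CA12*, *NDRG1* and *EGLN3* mark the libraries labelled shScr replicate 4 and shEn1_2 replicate 1 at the left.

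Among the oxygen-sensing genes, the transcription factor subunits behaved differently. *HIF1A*, the subunit present in most cells, had 119.6, 139, 102 and 92.03 CPM in shScr, 132 and 103 CPM in shEn1_1 and 110.4 and 118 CPM in shEn1_2. Its highest library was 1.51 times its lowest, and the labelled groups overlapped (log2 fold change 0.035, SE 0.14). *EPAS1*, which encodes HIF-2 alpha (gene number 2034, chr2:46520806-46613836 on the + strand of GRCh37), had 130.2, 101, 101 and 40.9 CPM in shScr, 102 and 129 CPM in shEn1_1 and 41.02 and 113 CPM in shEn1_2. The libraries labelled shScr replicate 4 and shEn1_2 replicate 1 were the lowest, and the lowest of the other 6 was 2.46 times the higher of this pair, although the labelled groups overlapped (log2 fold change 0.044, SE 0.40). Per kilobase of canonical transcript the mean level of *HIF1A* was 28.99 CPM and that of *EPAS1* 18.4 CPM. The share of *EPAS1* in the length-scaled sum of both was 22.1 to 48.9%, lowest in the same pair of libraries.

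*EGLN3*, the prolyl hydroxylase whose own gene is a HIF target, followed *EPAS1*. Its levels were 13.02, 14.02, 7.52 and 5.21 CPM in shScr, 8.18 and 11.5 CPM in shEn1_1 and 3.76 and 11.5 CPM in shEn1_2. The pair was lowest here too, the lowest of the other 6 being 1.44 times the higher of the pair (log2 fold change between labels -0.19, SE 0.40). *EGLN1*, the main oxygen sensor of most cells, had 71.1, 81.8, 57.4 and 72.6 CPM in shScr, 57.7 and 74.1 CPM in shEn1_1 and 77.6 and 82.9 CPM in shEn1_2. Its lowest values were the libraries labelled shScr replicate 3 and shEn1_1 replicate 1, and it spanned 1.44-fold. Of the *EGLN1* and *EGLN3* sum per length, *EGLN3* took 7.20 to 22.7%.

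The secreted and surface targets spread the most: in all 5 tested, the highest library was at least 2 times the lowest. *ADM*, the gene of the vessel-widening peptide adrenomedullin (gene number 133, chr11:10326620-10328944 on the + strand of GRCh37), had 18.3, 11.2, 18.2 and 86.6 CPM in shScr, 19.4 and 17.9 CPM in shEn1_1 and 93.3 and 13.98 CPM in shEn1_2. The libraries labelled shScr replicate 4 and shEn1_2 replicate 1 stood 4.45 times above the highest of the other 6, so that each labelled group held 1 high library (log2 fold change 0.11, SE 0.79). *VEGFA*, the angiogenic growth factor, did not share this arrangement, with 60.3, 42.1, 30.7 and 35.3 CPM in shScr, 34.01 and 64.5 CPM in shEn1_1 and 34.7 and 45.2 CPM in shEn1_2. It was highest in the libraries labelled shScr replicate 1 and shEn1_1 replicate 2 and lowest in shScr replicate 3 and shEn1_1 replicate 1 (log2 fold change 0.083, SE 0.26). A pair of textbook HIF targets for blood supply thus peaked in different libraries.

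*ANGPTL4*, a secreted inhibitor of lipoprotein lipase, had 55.8, 11.1, 18.7 and 24.6 CPM in shScr, 34.96 and 52.1 CPM in shEn1_1 and 27.99 and 18.6 CPM in shEn1_2. Its highest value was in shScr and so was its lowest, a 5.05-fold range, with the libraries labelled shScr replicate 1 and shEn1_1 replicate 2 on top as for *VEGFA* (log2 fold change 0.28, SE 0.48). *LOX*, the lysyl oxidase that crosslinks collagen, was low, at 1.72, 1.75, 7.83 and 3.92 CPM in shScr, 10.9 and 2.88 CPM in shEn1_1 and 4.22 and 2.06 CPM in shEn1_2. It was highest in the libraries labelled shEn1_1 replicate 1 and shScr replicate 3, and its fold change between labels was the highest of the members (0.40, SE 0.62).

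The carbonic anhydrases, which hydrate carbon dioxide at the cell surface, were unequal. *CA9*, often used as a marker of hypoxic tumour cells, had between 0 and 0.060 CPM, or 0 to 2 counts in a library, and was not tested. Since 3 counts is the limit that a count of 0 allows, its absence from a library is a statement at this depth only. *CA12* (gene number 771, chr15:63613577-63674045 on the - strand of GRCh37) had 10.6, 24.9, 38.7 and 4.78 CPM in shScr, 24.9 and 11.7 CPM in shEn1_1 and 4.52 and 22.1 CPM in shEn1_2. It had the widest range among the tested members with reads in every library, 8.56-fold. The libraries labelled shScr replicate 4 and shEn1_2 replicate 1 were lowest, the lowest of the other 6 being 2.23 times the higher of the pair, and shScr replicate 3 was highest (log2 fold change -0.32, SE 0.66).

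**Figure D3:**
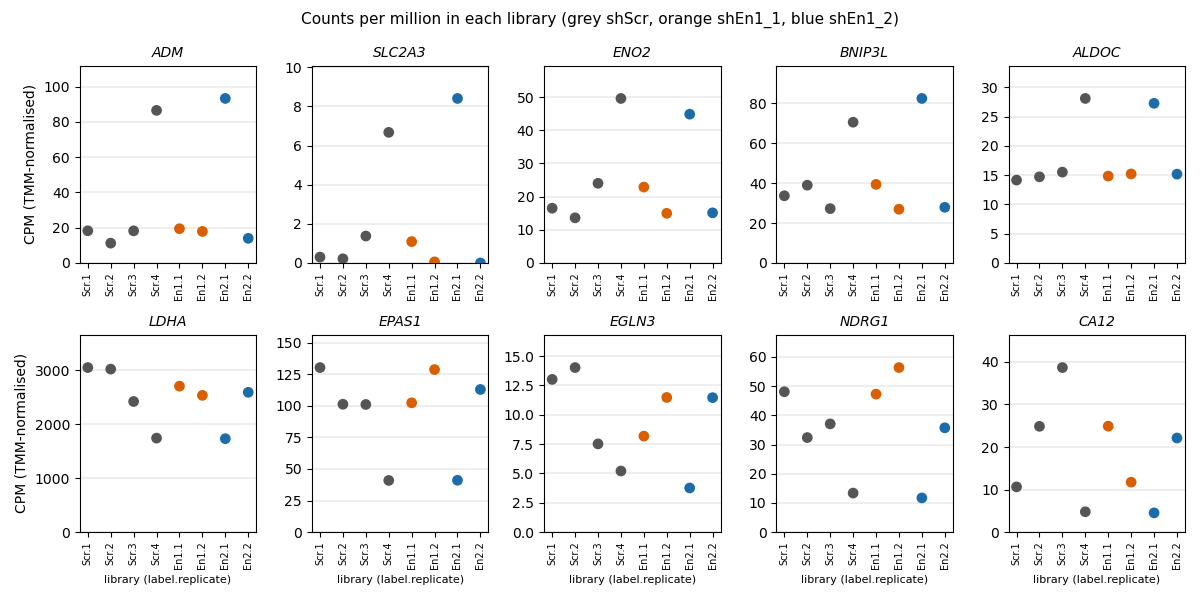
CPM (TMM-normalised, linear axes from 0) of 10 members in each of the 8 libraries, 1 point per library, coloured by label. In *ADM*, *SLC2A3*, *ENO2*, *BNIP3L* and *ALDOC* the points of shScr replicate 4 and shEn1_2 replicate 1 are the highest, and in *LDHA*, *EPAS1*, *EGLN3*, *NDRG1* and *CA12* they are the lowest.

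The mitophagy receptors lay above the other libraries in that pair, and *NDRG1* below them. *BNIP3*, which marks mitochondria for removal, had 28.7, 28.5, 26.1 and 39.8 CPM in shScr, 29.6 and 32.5 CPM in shEn1_1 and 45.9 and 21.4 CPM in shEn1_2. The pair was 1.22 times the highest of the other 6 (log2 fold change 0.073, SE 0.22). *BNIP3L*, its paralog, had 33.7, 39.00, 27.3 and 70.6 CPM in shScr, 39.4 and 26.95 CPM in shEn1_1 and 82.5 and 27.9 CPM in shEn1_2, and the pair stood 1.79 times above the others. *NDRG1*, a stress-response gene and common hypoxia readout, ran the other way, at 48.1, 32.4, 37.1 and 13.4 CPM in shScr, 47.3 and 56.4 CPM in shEn1_1 and 11.7 and 35.7 CPM in shEn1_2. Its lowest value among the other 6 was 2.42 times the higher of the pair (log2 fold change 0.21, SE 0.48).

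Of the other stress targets, *KDM3A*, a histone H3 lysine 9 demethylase, had 19.5, 26.4, 17.4 and 29.2 CPM in shScr, 24.5 and 18.01 CPM in shEn1_1 and 31.7 and 18.7 CPM in shEn1_2, and the pair was 1.11 times the highest of the other 6. *BHLHE40*, a transcriptional repressor, lay between 9.47 and 16.4 CPM, highest in shScr replicate 2 and shEn1_2 replicate 2. *ANKRD37* had 0.059 to 0.512 CPM and was not tested.

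The collagen-modifying hydroxylases, which need oxygen as a substrate, spanned less than 2-fold each. *P4HA2*, a prolyl 4-hydroxylase subunit, had 35.3, 36.2, 40.8 and 23.8 CPM in shScr, 44.7 and 31.7 CPM in shEn1_1 and 23.8 and 37.6 CPM in shEn1_2. The pair was lowest, and the lowest of the other 6 was 1.33 times the higher of the pair. *P4HA1*, its paralog, lay between 40.1 and 59.6 CPM with the pair within the others (log2 fold change -0.080, SE 0.15). *PLOD1* and *PLOD2*, the lysyl hydroxylases, lay at 130.01 to 177 and 21.8 to 34.3 CPM. *PLOD1* was highest in the library labelled shScr replicate 3.

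Of the glucose transporter genes among the members, the more abundant was *SLC2A1*, with 248, 208, 224 and 193 CPM in shScr, 208 and 249 CPM in shEn1_1 and 193 and 237 CPM in shEn1_2. It encodes the transporter GLUT1, spanned 1.29-fold, and its 2 lowest libraries were the same pair as for *EPAS1* under TMM but not under library size scaling (log2 fold change 0.024, SE 0.12). *SLC2A3*, the gene of the high-affinity transporter GLUT3 (gene number 6515, chr12:8071826-8171603 on the - strand of GRCh37), was nearly silent, at 0.301, 0.216, 1.38 and 6.67 CPM in shScr, 1.09 and 0.059 CPM in shEn1_1 and 8.41 and 0 CPM in shEn1_2. Only the pair exceeded 2 CPM, at 4.85 times the highest of the other 6, and 1 library had no read. Its fold change between labels, 0.16, had an SE of 1.52. Per kilobase, *SLC2A1* had 65.0 CPM and *SLC2A3* 0.592 CPM on average.

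The hexokinases, which trap glucose as its phosphate, ran in opposite directions across the pair. *HK1*, the form found in most tissues, had 191, 160.1, 179 and 233 CPM in shScr, 185 and 204 CPM in shEn1_1 and 228 and 189 CPM in shEn1_2, with the pair 1.12 times the highest of the other 6. *HK2*, the inducible form of tumours, had 118, 98.8, 100.3 and 91.1 CPM in shScr, 92.9 and 122 CPM in shEn1_1 and 85.9 and 123 CPM in shEn1_2, with the pair lowest by a factor of 1.02 under TMM and within the others under library size alone (log2 fold change 0.053, SE 0.15). *HK2* made up 19.4 to 29.3% of the length-scaled sum, lowest in the pair.

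The next steps varied little. *GPI*, the phosphoglucose isomerase, had 201 to 294 CPM, highest in shScr replicate 3 and next in shEn1_1 replicate 1. Of the phosphofructokinases, *PFKP*, the platelet form, had 398 to 594 CPM and 62.8 to 74.2% of the length-scaled sum, *PFKL* 107 to 158 CPM and *PFKM* 101 to 137 CPM. *PFKFB3*, which makes the activator fructose 2,6-bisphosphate, had 374 to 495 CPM. *PFKFB4*, a related bifunctional enzyme, had 5.996, 8.60, 9.01 and 9.26 CPM in shScr, 4.79 and 7.71 CPM in shEn1_1 and 7.21 and 6.91 CPM in shEn1_2. Its groups overlapped, and its log2 fold change of -0.30 (SE 0.22) was the one with the smallest p among the members.

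In lower glycolysis the scarce isozymes *ALDOC* and *ENO2* were highest in the pair under each scaling. Their abundant counterparts *ALDOA* and *ENO1* were lowest there by small margins, under TMM but not under library size scaling. *ALDOA*, the main aldolase, had 1724, 1581, 1697 and 1456 CPM in shScr, 1514 and 1827 CPM in shEn1_1 and 1406 and 1683 CPM in shEn1_2. *ALDOC*, the form best known from brain (gene number 230, chr17:26900133-26903966 on the - strand of GRCh37), had 14.2, 14.7, 15.5 and 28.1 CPM in shScr, 14.8 and 15.2 CPM in shEn1_1 and 27.3 and 15.2 CPM in shEn1_2. *ALDOC* stood 1.76 times above the highest of the other 6 libraries in the pair, where *ALDOA* was lowest, by 1.04-fold under TMM and not under library size scaling. The log2 fold change of *ALDOC* between labels was 0.00016 (SE 0.28), and its share of the length-scaled sum was 0.831 to 1.94%.

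The enolases repeated this. *ENO1*, the general form, had 2369, 2063, 2178 and 1934 CPM in shScr, 2331 and 2213 CPM in shEn1_1 and 1834 and 2246 CPM in shEn1_2, and was lowest in the pair by 1.07-fold under TMM but not under library size scaling (log2 fold change 0.013, SE 0.12). *ENO2*, the neuron-specific enolase (gene number 2026, chr12:7022909-7032861 on the + strand of GRCh37), had 16.5, 13.6, 24.02 and 49.6 CPM in shScr, 22.9 and 14.98 CPM in shEn1_1 and 44.9 and 15.1 CPM in shEn1_2. The pair was 1.87 times the highest of the other 6, and *ENO2* took 0.510 to 1.95% of the length-scaled sum.

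The other steps of lower glycolysis spanned less than 2-fold. *PGAM1*, the phosphoglycerate mutase, had 487, 489, 535 and 533 CPM in shScr, 504 and 491 CPM in shEn1_1 and 518 and 514 CPM in shEn1_2, and its 1.0996-fold range was the least of the 41. *TPI1*, the triose isomerase, had 867 to 1128 CPM. *PGK1*, which makes the first ATP of the pathway, had 565, 611, 609 and 477 CPM in shScr, 692 and 499 CPM in shEn1_1 and 463 and 539 CPM in shEn1_2 (log2 fold change -0.044, SE 0.15). *PKM*, the pyruvate kinase, had 4003, 3368, 3954 and 2929 CPM in shScr, 3774 and 3837 CPM in shEn1_1 and 2812 and 3519.6 CPM in shEn1_2. It was lowest in the pair, the lowest of the others being 1.15 times the higher of the pair, and kept this place under each scaling.

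*GAPDH*, often used as a reference gene, was the most abundant member, at 5418, 5085, 6099 and 4968 CPM in shScr, 6298 and 5116 CPM in shEn1_1 and 4752 and 5175 CPM in shEn1_2. It was highest in the libraries labelled shEn1_1 replicate 1 and shScr replicate 3 and spanned 1.33-fold. Its lowest libraries, shEn1_2 replicate 1 and shScr replicate 4, were so under TMM but not under library size scaling. The RT-qPCR primers that the study lists for it are shown because they bear on how specific such a reading is.
GAPDH forward: ccaaggagtaagacccctgg
GAPDH reverse: aggggagattcagtgtggtg
The forward primer matched chr12:6647326-6647345 (+) and the reverse primer chr12:6647423-6647442 (-) of GRCh37, both in exon 9 of 9, the reverse one in the UTR. The genome held 8 perfect matches of the forward primer and 2 of the reverse, these sites included. RefSeq names 65 *GAPDH* pseudogenes and 46 for *BNIP3*, none of them in the count tables. In all, 16 members have pseudogenes named after them, and how reads shared with these copies were counted is not given in the sources used here, so the levels of those members are uncertain to that extent.

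At the end of the pathway, *LDHA*, which turns pyruvate into lactate (gene number 3939, chr11:18416107-18429972 on the + strand of GRCh37), had 3049, 3020.1, 2419.9 and 1742 CPM in shScr, 2704 and 2534 CPM in shEn1_1 and 1731 and 2590.2 CPM in shEn1_2. The pair was lowest and the lowest of the other 6 was 1.39 times the higher of the pair (log2 fold change between labels -0.098, SE 0.20). This place, too, was the same under each scaling. *SLC16A3*, the lactate exporter MCT4, did not follow it, at 78.9, 63.4, 157 and 84.9 CPM in shScr, 122 and 89.3 CPM in shEn1_1 and 73.7 and 97.9 CPM in shEn1_2. It was highest in shScr replicate 3 and shEn1_1 replicate 1 (log2 fold change -0.0070, SE 0.27). The pyruvate dehydrogenase kinases, which inhibit pyruvate dehydrogenase, were low. *PDK1* had 11.5 to 15.4 CPM and *PDK3* 18.3 to 27.05 CPM, the pair being highest for *PDK3* by 1.05-fold.

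Per kilobase of canonical transcript, the mean level was 4174 CPM for *GAPDH*, 1529 for *PKM*, 1205 for *ENO1*, 1104 for *LDHA* and 982 for *ALDOA*. With the lengths of all annotated exons merged, *GAPDH* stayed first at 2239 CPM and the other 4 lay within 410 to 421 CPM, so their order is a matter of the length used. Together the 43 members held 1.86 to 2.16% of a library's counts.

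Shares of one paralog within its group were compared between labels by an exact two-sided permutation test over the 70 assignments of 4 libraries to 4, which cannot give a p below 0.0286. None of the 13 shares passed (Benjamini-Hochberg adjusted p 0.960 to 0.971). The smallest unadjusted p of this exact test was 0.114, for *PFKFB4*, which made up 2.35% ± 0.325 (SD, n = 4) of the *PFKFB3* and *PFKFB4* sum in shScr and 1.99% ± 0.303 (SD, n = 4) in shEn1. Within the pair of libraries labelled shScr replicate 4 and shEn1_2 replicate 1 the shares of *EPAS1*, *EGLN3*, *BNIP3*, *P4HA2* and *HK2* were the lowest of the 8, and those of *SLC2A3*, *ALDOC* and *ENO2* the highest.

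**Figure D4:**
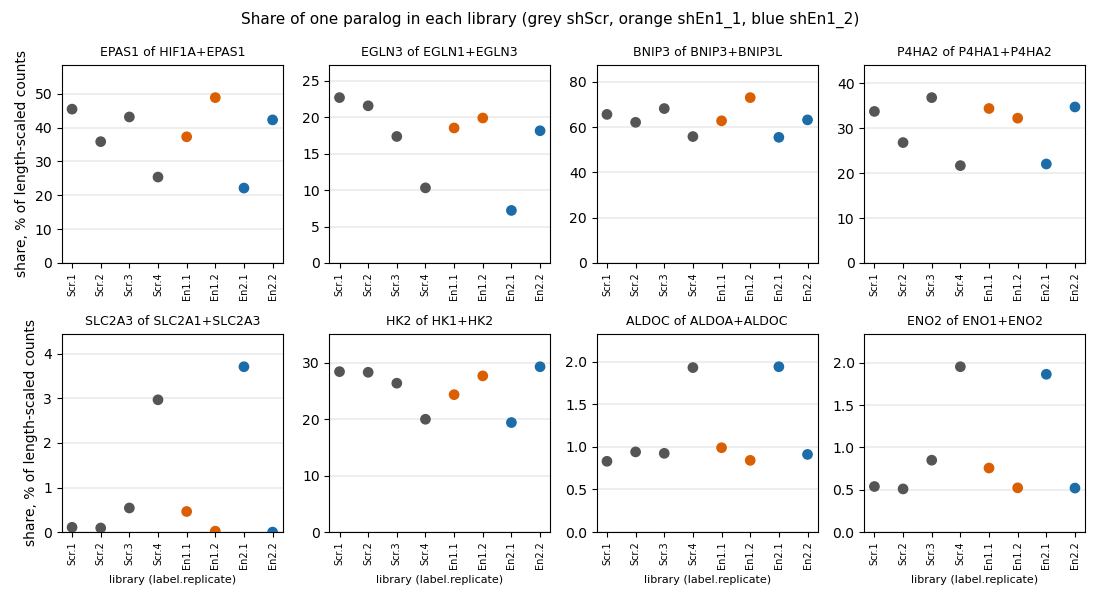
Share of 1 paralog in the sum of its pair, from counts per kilobase of canonical transcript, in each of the 8 libraries (points coloured by label, axes from 0). The panels are the shares for which the points of shScr replicate 4 and shEn1_2 replicate 1 lie at one end, while the labels overlap. The shares of *CA9*, *PDK3*, *PLOD2*, *PFKP* and *PFKFB4*, not drawn, did not have both at one end.

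For any pairing, the ratio within a pair cannot exceed the ratio of highest to lowest over all 8 libraries. Ratios within the 4 pairs of libraries nearest by log2 CPM are therefore given for their size only. Of the 13 members with a range of at least 2-fold, 12 had reads in every library. Their median ratio of highest to lowest was 3.69, while each one's median ratio within the 4 pairs lay between 1.01 and 1.41. Single pairs differed by up to 1.87-fold, for *ANGPTL4* in shScr replicate 3 and shEn1_1 replicate 1, and *CA12* by 1.55-fold in the same pair. *SLC2A3*, with no read in 1 library, differed 5.12-fold between shScr replicate 1 and shEn1_1 replicate 2, at 0.301 and 0.059 CPM. The pairs were found from all genes, members included, so this describes the libraries and is not support for them. *VEGFA* had 60.3 and 64.5 CPM in shScr replicate 1 and shEn1_1 replicate 2, and 42.1 and 45.2 CPM in shScr replicate 2 and shEn1_2 replicate 2. It had 30.7 and 34.01 CPM in shScr replicate 3 and shEn1_1 replicate 1, and 35.3 and 34.7 CPM in shScr replicate 4 and shEn1_2 replicate 1. A second pair, shScr replicate 3 and shEn1_1 replicate 1, was above the other 6 in 8 members (19.5%, against 7.05% of all tested genes), *LOX*, *CA12*, *P4HA2*, *PLOD1*, *GPI*, *TPI1*, *GAPDH* and *SLC16A3*. It was below them in 3 (7.32%, against 6.83%), *EGLN1*, *VEGFA* and *PFKP*. The margins of those above ran from 1.0015-fold (*CA12*) and 1.04-fold (*GPI*) to 1.25-fold (*SLC16A3*) and 1.86-fold (*LOX*). Those below had margins from 1.02-fold (*VEGFA*) to 1.23-fold (*EGLN1*).

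**Figure D5:**
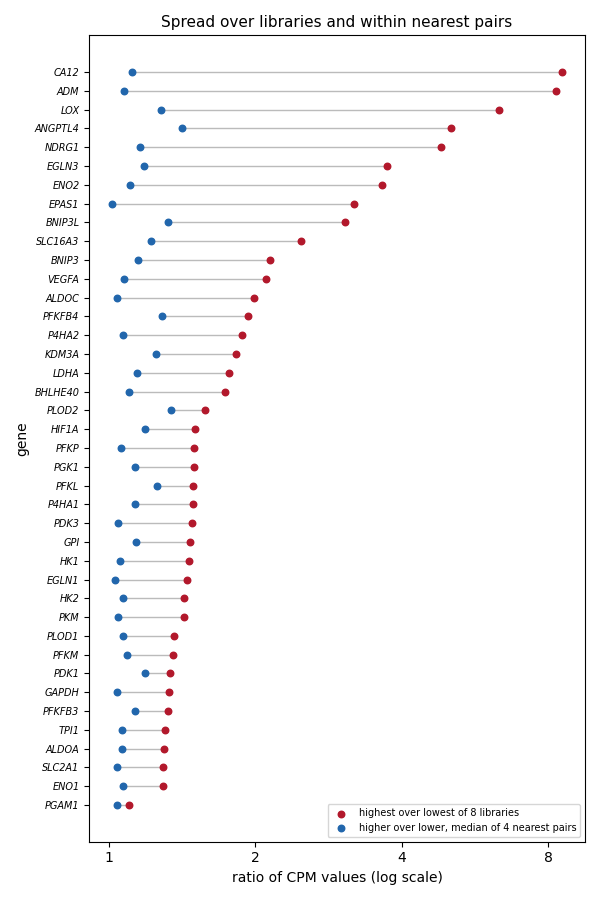
For 40 members, the ratio of the highest to the lowest CPM over 8 libraries (red) and the median, over the 4 nearest pairs of libraries, of the higher over the lower CPM (blue), on a log axis. *CA12* and *ADM* lie at the right end in red, at 8.56 and 8.30, and their blue points stay near 1. A blue point cannot lie to the right of its red one, whichever libraries are paired.

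With places taken under TMM, the ACGTG core was found among members of each pattern. ACGTG was in the promoter of 4 of 7 members above, 5 of 12 below and 7 of 18 within the other libraries in the pair labelled shScr replicate 4 and shEn1_2 replicate 1. *BNIP3*, *ALDOC* and *ENO2* and, on the other side, *LDHA* and *GAPDH* hold it, as printed above. The counts depend on the scaling. Of the members below that hold it, *HK2*, *ALDOA*, *GAPDH* and *PGK1* lay within the others under library size alone, and only *LDHA* kept its place. *EPAS1*, *EGLN3*, *CA12*, *P4HA2* and *PKM*, below under each scaling, had no ACGTG.

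Of 70 other genes of oxygen sensing and glucose metabolism, a list set by function, 62 were tested. None was called and none had an unadjusted p below 0.05, with 30 higher and 32 lower in shEn1 and log2 fold changes from -0.72 to 0.59. In the pair labelled shScr replicate 4 and shEn1_2 replicate 1, 10 (16.1%) were above and 17 (27.4%) below the other 6 libraries, beside 18.9% and 19.2% of all tested genes. With library size alone the counts were 16 (25.8%, beside 27.4%) and 13 (20.97%, beside 12.9%). Among the 5 with the widest range at a mean of at least 1 CPM were *STC1*, *CXCR4*, *SLC2A12* and *SLC2A10*. *STC1*, a secreted glycoprotein hormone, lay between 0.934 and 11.3 CPM, and *CXCR4*, a chemokine receptor, between 2.32 and 16.2 CPM, both highest in shEn1_1 replicate 1. *SLC2A12*, a glucose transporter, lay between 0.603 and 3.33 CPM. *SLC2A10*, another one, had 39.8 and 38.0 CPM in the pair and at most 20.1 CPM elsewhere.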

How the data were processed

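RNA-seq libraries of SUIT2 cells (4 labelled shScr, 2 shEn1_1, 2 shEn1_2) were grouped by their titles. The authors deposited raw read counts per gene, made with HISAT2 on hg19 and featureCounts according to the study's methods, while the processing notes in the labels name mm9. The gene numbers are human, so hg19 was taken for positions. Versions, annotation and strand setting are not given in the sources used here, so reads of overlapping genes may be shared.

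Of 25702 gene numbers, 23696 were matched to symbols through a RefSeq table. Genes were filtered with filterByExpr (minimum count 10, 14333 kept), scaled by TMM and tested with edgeR 4.0.16 (glmQLFit, robust, and glmQLFTest) in R 4.3.3, with Benjamini-Hochberg adjustment over all tested genes and a threshold of 0.05. CPM and paralog shares (counts per kilobase of GENCODE transcript on GRCh37) were computed per library. limma 3.58.1 (voom) and DESeq2 1.42.0 served as alternatives, beside other scalings, filters and libraries left out. On simulated counts with 200 changed genes for shEn1 against shScr (14127 genes tested), 50.5% of 2-fold changes were recovered, and 86% of 4-fold changes in 14143 genes. Simulated counts were drawn independently for each gene and library, whereas the real libraries formed close pairs across labels. These rates therefore do not give the share of real changes that the fits could find.

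All 43 members are named with values, fold changes are given for a panel of 20 and for any with an unadjusted p below 0.05, and other pathway genes by counts and the 5 widest ranges, of which 1 is not reported here. Members and lists were chosen with earlier results of these data known. *CA9* and *ANKRD37* were too low to test.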

Additional observations from a re-analysis of the deposited data

Results flagged for a closer look

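In 108 groups of 4 values (members and paralog shares, each label arm apart), 12 had 1 library far from the other 3. The cut-off flags about 1 in 20 groups, or 5.4, where values are independent and normally distributed. Here the shares reuse the members' counts and members move together within libraries, so the 12 cannot be read as an excess over 5.4. Of the 12, 4 were in the library labelled shScr replicate 4 and 6 in shEn1_2 replicate 1.

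In shScr replicate 4, *ADM* stood at 86.6 CPM against 11.2 to 18.3 CPM in the other shScr libraries, and *ALDOC* at 28.1 CPM against 14.2 to 15.5 CPM. The *SLC2A3* share of *SLC2A1* and *SLC2A3* was 2.97% there against 0.092 to 0.541%, and the *ALDOC* share of the aldolases 1.93% against 0.831 to 0.941%.

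In shEn1_2 replicate 1, *ADM* stood at 93.3 CPM against 14.0 to 19.4 CPM in the other shEn1 libraries, *SLC2A3* at 8.41 CPM against 0 to 1.09 CPM, and *ALDOC* at 27.3 CPM against 14.8 to 15.2 CPM. The *EGLN3* share of *EGLN1* and *EGLN3* was 7.20% against 18.1 to 19.9%. The *SLC2A3* share was 3.71% against 0 to 0.462%, and the *ALDOC* share 1.94% against 0.842 to 0.990%.

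*PLOD1* stood at 177 CPM in shScr replicate 3 against 135 to 138 CPM in the other shScr libraries, and *TPI1* at 1128 CPM in shEn1_1 replicate 1 against 867 to 906 CPM in the other shEn1 libraries.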

How the results depend on the processing

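No alternative called a member. Genes called between shEn1 and shScr numbered 0, against 44 at an unadjusted p below 0.05 and 2 with DESeq2 (*VAMP7* and gene number 100507676). *VAMP7* was the only call (1 gene) with the replicate block, in the 6 libraries without shScr replicate 4 and shEn1_2 replicate 1, and in the 4 without also shScr replicate 3 and shEn1_1 replicate 1. For shEn1_1 against shScr, the fit of the compared libraries alone called 1 gene and DESeq2 3, against 0. Leaving out 1 library at a time gave 0 to 1 gene in either comparison (in the first *VAMP7* without shScr replicate 4, in the second *EIF3CL* without shEn1_1 replicate 2 and gene number 100507676 without shEn1_2 replicate 1). Without shEn1_1 replicate 2 that arm held 1 library, assumed to vary like the other groups, so the call of *EIF3CL* rests on their spread. The 44 genes at an unadjusted p below 0.05 became 88 without shScr replicate 4, 96 without shEn1_2 replicate 1 and 271 with the replicate block. At that level 1 member, *ANGPTL4*, passed without shScr replicate 1 (log2 fold change 0.88, edgeR adjusted p = 1.00). By construct, shEn1_1 against shScr gave 187 of 14606 genes without shScr replicate 1, against 94, with *ANGPTL4* among them (log2 fold change 1.27). *LOX* (1.48) was among 95 of 14540 genes without shScr replicate 3. With the block, *LOX* (1.69) and *SLC16A3* (0.57) were among 120 of 14333. shEn1_2 against shScr gave 337 without shScr replicate 4 and 473 with the block, against 43. shEn1_2 against shEn1_1 gave 374 of 14473 genes without shScr replicate 4, *NDRG1* (-1.13) among them, and 309 with the block, against 153. *ANGPTL4* was among 175 of 14606 genes without shScr replicate 1. It was also among 207 of 14494 in the compared libraries alone (both -0.90). For shEn1 against shScr, leaving out 1 library at a time, the median log2 fold change of the members ran from -0.034 to 0.014.

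The deviations of same-numbered libraries from their group means correlated with r from -0.37 to 0.52. The highest was between shScr replicate 2 and shEn1_2 replicate 2, which were also nearest by log2 CPM. With 2 libraries per construct the deviations mirror each other, so every r with one has its opposite with the other. Whether same-numbered libraries were handled together cannot be told from these values. The replicate block turned the sign of 8 log2 fold changes, to -0.16 for *HIF1A*, -0.34 for *EPAS1*, -0.25 for *VEGFA*, -0.14 for *NDRG1*, -0.049 for *SLC2A1*, -0.062 for *HK2*, -0.040 for *ENO1* and 0.43 for *SLC16A3*, with 0 members called.

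Other signs that turned were those of *ALDOC* (-0.0018 with library size only, -0.0014 with at least 10 counts in every library), *SLC2A3* (-1.38 with limma-voom, -0.70 in 6 libraries), *SLC16A3* (0.058 with limma-voom, 0.0061 without a filter, 0.040 in 6 libraries, 0.39 in 4), *HIF1A* (-0.033 in 6 libraries, -0.23 in 4) and *BNIP3* (-0.087 in 4). The cause was not tested. Without 1 library each, log2 fold changes ran from -2.44 to 1.92 for *SLC2A3*, -0.27 to 0.29 for *ALDOC*, -0.40 to 0.055 for *EGLN3*, -0.15 to 0.030 for *P4HA1*, -0.031 to 0.082 for *ENO1*, -0.051 to 0.15 for *HIF1A*, -0.15 to 0.31 for *VEGFA*, -0.65 to 0.24 for *CA12*, -0.16 to 0.34 for *SLC16A3*, -0.20 to 0.29 for *EPAS1*, -0.053 to 0.51 for *NDRG1*, -0.038 to 0.092 for *SLC2A1*, -0.32 to 1.02 for *LOX*, -0.013 to 0.88 for *ANGPTL4*, -0.026 to 0.14 for *HK2*, -0.15 to 0.23 for *BNIP3*, -0.18 to 0.028 for *PGK1*, -0.24 to 0.027 for *LDHA*. Share differences (shEn1 minus shScr, percentage points) ran from -0.652 to 0.179 for *PDK3*, -0.766 to 0.801 for *SLC2A3*, -2.52 to 1.33 for *HK2*, -0.242 to 0.272 for *ALDOC*, -3.85 to 5.35 for *EPAS1*, -2.13 to 0.322 for *PLOD2*, -0.038 to 3.2 for *PFKP*, -2.45 to 3.39 for *BNIP3*, -1.6 to 4.03 for *P4HA2*, -0.363 to 0.283 for *ENO2*, -4.59 to 0.873 for *EGLN3*. None of these had an adjusted p below 0.05 in any fit.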
